A study of Saccharomyces cerevisiae with 8 samples.

Results

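The comparison described here set baker's yeast (Saccharomyces cerevisiae) that lacks both genes for the ribosomal protein Rpl12 against its wild type. Its members were the 2 arrays titled as the RPL12 double deletion and the 2 titled as wild type, 4 of the 8 arrays of the series. The other 4 arrays hold the double deletion strain carrying a high copy number plasmid with RPL12A or with RPL12B, 2 arrays each, and entered the fit only as further estimates of the spread between replicates. W303 served as the wild type. The double deletion is strain 6EA1, which lacks RPL12A and RPL12B in the same W303 background, with no plasmid. Every strain was grown at 30 °C in a defined glucose medium (2%) and harvested in early log phase, and total RNA was labelled and hybridised to Affymetrix yeast arrays. The supplements that each strain received, the mating type and the markers used for the deletions are not given in the labels, and each genotype is 1 strain. The labels call the 2 arrays of a group biological replicates and say nothing more on how they were separated, so the p-values measure the spread between such arrays. The text covers metabolism, transport, the cell wall and the organelles. Genes of phosphate control (the PHO regulon), ribosomal protein genes and amino acid synthesis genes under the activator Gcn4 were set aside.

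Rpl12 sits at the base of the stalk of the large ribosomal subunit, where it binds ribosomal RNA next to the site at which the translation factors that use GTP act. The genes RPL12A and RPL12B encode the same protein, and yeast without either gene is alive but grows slowly. In yeast, many genes outside translation are set by the nutrients at hand and by growth rate. Permeases are switched by the level of their own substrate, genes for reserve carbohydrates, heat shock proteins and autophagy are low in fast growth on glucose, and wall protein genes follow the cell cycle and wall stress.

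The deleted genes were read first. RPL12A gave signals of 5321 and 5269 on the wild type arrays and 28.8 and 6.88 on the double deletion arrays. RPL12B gave 6537 and 7039.7 against 17.3 and 1.71. Both genes were thus far under their wild type level in both double deletion libraries, as labelled. The 95th percentile of probe sets for another yeast, Schizosaccharomyces pombe, lay between 7.42 and 8.72 on the 8 arrays. Both genes lay above it on double deletion replicate 1, where it was 7.6. On replicate 2, where it was 7.8, both lay under it. Mating type markers were alike in kind in both strains. The alpha factor receptor gene STE2, a MATa marker, stood at 3062 and 2910.4 in the wild type and 3119 and 3045 in the double deletion. The pheromone gene MF(ALPHA)1, a MATalpha marker, stood at 18.4 and 16.7 and 12.5 and 21.8. The sum over the 7 MATa genes was 8801 and 9425 in the wild type and 7232 and 7310 in the double deletion, and that over the 4 MATalpha genes was 241 and 273 in the wild type and 478 and 402 in the double deletion. The rise of the second sum lay in SAG1, the alpha agglutinin gene, with 159.6 and 174 against 402 and 315 (limma adjusted p = 0.0224). SAG1 did not pass on each of the 4 scalings described below. In fits with 1 array left out its log2 difference lay between 0.92 and 1.27. It missed the threshold at least where double deletion replicate 1 was left out. The receptor gene STE3 stood at 42.8 and 58.9 and 35.0 and 38.9.

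Of 5439 genes tested with limma on log2 signal, 1770 (32.5%) passed an adjusted p of 0.05, with 1109 (20.4%) higher and 661 (12.2%) lower in the double deletion. The arrays of the groups did not overlap for 4107 genes (75.5%), so separation of 2 arrays from 2 is by itself common here, and an exact permutation test of 2 against 2 cannot go below p = 0.333. The difference depended on how bright a gene was. In the second of 10 equal bins of genes ordered by mean signal the median log2 difference was 0.51, and in the brightest bin, with signals from 2677, it was -0.28, with 305 genes lower and 12 higher. After quantile normalization the bin medians lay between -0.05 and 0.04, and 391 genes (7.19%) were higher and 427 (7.85%) lower. On both scales together 361 genes (6.64%) passed as higher and 319 (5.87%) as lower. Over all genes the median difference was 0.14 as deposited, -0.06 with arrays centred on their medians, -0.0025 after quantile normalization and 0.54 when arrays were centred on the spiked hybridisation controls. With median centring 548 genes were higher and 1206 lower, and with the hybridisation controls 2816 and 60, so the split between higher and lower depends on the scaling. Genes were therefore also counted by whether they passed in the same direction on all 4 scalings, which 289 genes (5.31%) did as higher and 59 (1.08%) as lower. Each count rests on 4 arrays: leaving out double deletion replicate 1 left 238 genes that passed, and leaving out replicate 2 of that strain 1129. With wild type replicate 1 left out 478 genes passed, and with its replicate 2 left out 256. Behind a count of 4 or more members of a gene list, brackets give the lowest and the highest count in those 4 fits. In the text a gene rose or fell where it passed on the deposited scale, and a gene that passed on all 4 scalings is said to have held. A gene that missed the threshold in a fit with 1 array left out is given with each array for which this was so, where these 4 arrays means those of the wild type and the double deletion. Beside a list's share of calls, the share at like signal is the mean share among all genes in the signal bins of its members. A gene given only with its log2 difference is a further call of its list. Of the 152 genes so given ELO1 and COQ8 held, both as higher, and ADH6 alone passed whichever of the 8 arrays was left out. The number of them that passed was 25 without wild type replicate 1, 8 without wild type replicate 2, 13 when double deletion replicate 1 was left out and 73 when its replicate 2 was. It was 133 without either RPL12A plasmid array and 151 without either RPL12B plasmid array. A difference that turned was above 0 on the named scaling. Some control signals moved with the groups and others did not. The mean log2 signal of the hybridisation controls was 9.06 and 8.91 in the wild type and 8.53 and 8.63 in the double deletion. The ratio of the 5′ to the 3′ control probe sets of TDH1 was 0.784 and 0.754 in the wild type and 0.653 and 0.479 in the double deletion. That of SPT15 went the other way, with 0.428 and 0.416 against 0.484 and 0.460. The ratios of SRB4, WBP1, ACT1 and RIP1 overlapped between the groups. The part of the TDH1 ratio in the results was not tested. The 25S ribosomal RNA control read 148 on wild type replicate 2 and at least 2476 on the other 3 arrays; with the 8 arrays split by this signal as a block, 2179 genes passed, and in a fit of the 5 arrays with a high signal 810 did.

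**Figure D1:**
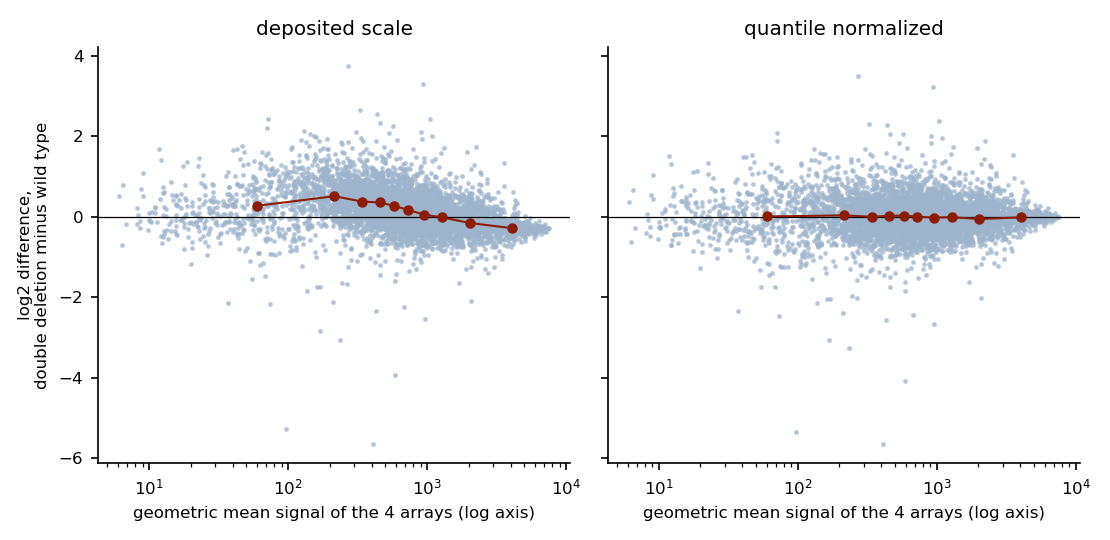
Log2 difference between double deletion and wild type (vertical axis, each group the mean of 2 arrays) against the geometric mean signal of a gene on the 4 arrays (horizontal log axis), on the deposited scale (left) and after quantile normalization (right). Each pale point is a gene, RPL12A and RPL12B are left out, and the dark points join the medians of 10 equal bins of genes. On the left these are 0.28 in the dimmest bin, 0.51 in the second and -0.28 in the brightest. On the right they stay between -0.05 and 0.04.

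Outside the set-aside groups 1098 of 5145 genes were higher and 472 lower, and at least 2-fold differences were found for 260 and 31 of them. Among all 5439 genes 266 (4.89%) and 44 (0.809%) passed with at least 2-fold. The 15 largest rises ran from 2.01 for NKP2 to 3.75 for NCA3 on the log2 scale, and the 15 largest falls from -1.31 for GGC1 to -3.92 for SUL1. Of these 30 genes 29 held on all 4 scalings, the exception being HSP42, and 21 passed whichever array was left out. They came from many functions. Among the falls were plasma membrane permeases (SUL1, ZRT1, QDR2, FCY21), the first enzyme of inositol synthesis (INO1), the uracil salvage enzyme FUR1 and a pair of mitochondrial genes (GGC1, HOT13). Among the rises were wall proteins (NCA3, SPI1), stress proteins (HSP42, DDR2, RTC3), a Golgi nucleotide sugar transporter paralogue (HVG1) and several genes without an assigned function.

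**Figure D2:**
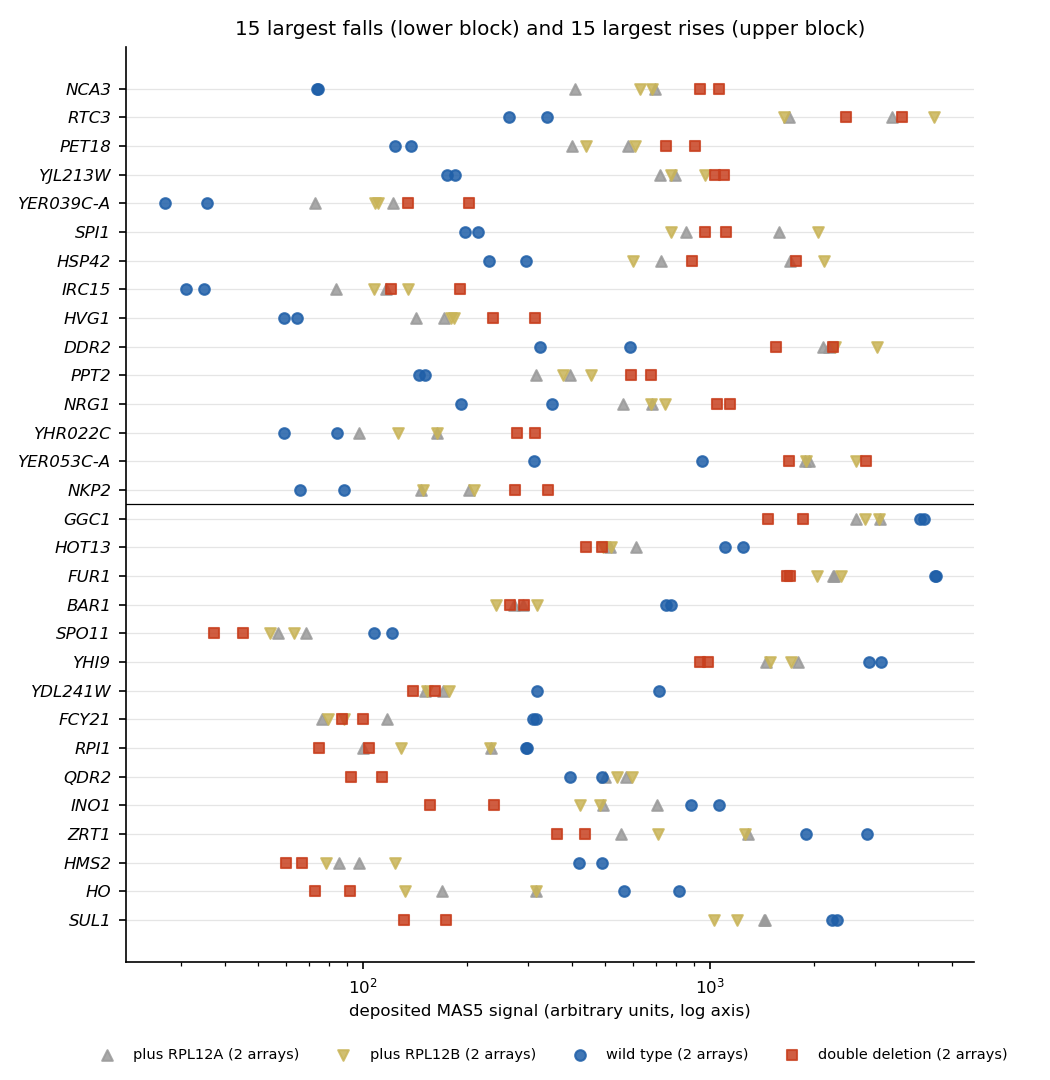
Signal on each array (horizontal log axis, arbitrary units) of the 15 genes with the largest falls and the 15 with the largest rises in the double deletion, each row 1 gene. Circles are the 2 wild type arrays, squares the 2 double deletion arrays and triangles the 4 arrays of the plasmid strains; in every row both squares lie on 1 side of both circles, as the choice of these genes required.

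The largest fall belonged to SUL1, the high affinity sulfate permease. Its signal was 2249.8 and 2336 on the wild type arrays and 132 and 174 on the double deletion arrays. The groups were far apart, with a 15.2-fold lower level in the double deletion (log2 difference -3.92, SE 0.15, limma adjusted p = 0.000126). The other sulfate permease gene, SUL2, read 1404 and 941 and 1925 and 1453, with groups that were close but did not overlap, and did not pass (log2 difference 0.54, limma adjusted p = 0.186). Of the 29 genes of sulfate uptake and sulfur assimilation tested, 4 (0 to 1) rose and 10 (4 to 9) fell (34.5%, beside 28.9% at like signal). The list's median was -0.23 on the deposited scale and 0.01 after quantile normalization, so the list as a whole did not stand off the median of all genes on the second scale. Besides SUL1 only SAM4 held as lower. SAM4 makes methionine from homocysteine with S-adenosylmethionine as methyl donor, and it read 3122 and 3166 against 1435 and 1499.8 (2.14-fold lower, limma adjusted p = 0.000679). Among the rises were MET32 (179.7 and 175 against 523 and 359), which encodes a DNA binding regulator of the sulfur genes, and CBF1 (395 and 247 against 688 and 599), which encodes its partner; neither held on all 4 scalings. STR3, the gene of cystathionine beta-lyase, rose as well (log2 difference 0.89). SUL1 and SAM4 passed in each fit that left out 1 of the 8 arrays. MET32 missed the threshold whichever 1 of these 4 arrays other than double deletion replicate 2 was left out (highest limma adjusted p = 0.102). CBF1 missed the threshold whichever 1 of these 4 arrays was left out (highest limma adjusted p = 0.218).

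ZRT1, the high affinity zinc transporter, read 2844 and 1890.04 in the wild type and 363 and 437 in the double deletion. It was 5.82-fold lower, with the groups apart and the 2 wild type arrays less alike than the double deletion arrays (log2 difference -2.54, SE 0.43, limma adjusted p = 0.00873). The gene for its activator, ZAP1, rose, from 277 and 259.8 to 392 and 404 (1.48-fold, limma adjusted p = 0.0423), but did not hold on every scaling. The low affinity transporter gene ZRT2 did not pass (1333 and 1044 against 1302 and 1366). Of 14 zinc genes 2 rose (14.3%, beside 19.3% at like signal) and 2 fell (14.3%, beside 9.91%), and ZRT1 alone held. The iron and copper uptake list had 9 (0 to 4) rises and 1 fall among 36 genes (25% and 2.78%). The shares were 22.5% and 6.27% at like signal and 20.4% and 12.2% among all genes. The fall in the iron and copper list was that of TIS11, which encodes an RNA binding protein of iron shortage, with 139 and 64.4 against 40.9 and 41.8. FIT1, a wall mannoprotein of iron uptake, was the only member that held, with 94.4 and 96.7 against 238 and 175 (2.14-fold higher). The surface iron oxidase gene FET3 varied more within groups than between them, at 2014 and 416 and 818 and 464. MSC2, a zinc transporter gene of the endoplasmic reticulum, rose and ZRC1, its counterpart at the vacuole, fell (log2 differences 0.53 and -0.47). In the iron and copper list FRE8, a ferric reductase relative, CRS5, a copper binding metallothionein, and HMX1, a heme oxygenase, rose too (log2 differences 1.55, 0.93 and 0.80). ZRT1 missed the threshold without wild type replicate 1 or double deletion replicate 1 (highest limma adjusted p = 0.0668). ZAP1 missed the threshold whichever 1 of these 4 arrays was left out (highest limma adjusted p = 0.18). TIS11 missed the threshold without wild type replicate 1 or double deletion replicate 1 or 2 or RPL12A plasmid strain replicate 1 or 2 (highest limma adjusted p = 0.153). FIT1 missed the threshold whichever 1 of these 4 arrays other than double deletion replicate 2 was left out (highest limma adjusted p = 0.0787).

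Drug exporters moved in both directions. QDR2, a multidrug transporter of the plasma membrane, read 396 and 491 in the wild type and 113 and 92.3 in the double deletion (4.31-fold lower, log2 difference -2.11, SE 0.18, limma adjusted p = 0.00151). Its relative QDR3 read 1207 and 1459 and 652 and 725 and was 1.93-fold lower. RPI1, a regulator gene that lies close to QDR2 on chromosome IX, fell as well, from 298 and 295 to 104 and 75.0. In contrast, the ABC exporter gene SNQ2 rose from 1064 and 872 to 1933 and 1797, and the genes of the regulators PDR1 and YRR1, which act on exporter genes, rose 1.68-fold and 2.19-fold; these 3 held. PDR5, the main ABC drug exporter gene, rose only 1.34-fold and did not hold, and FLR1, an exporter of the major facilitator family, rose 2.17-fold without holding. In all 10 (0 to 7) of 28 export genes rose (35.7%, beside 22.3% at like signal) and 2 fell, with a median of 0.44 on the deposited scale and 0.17 after quantile normalization. QDR2 and QDR3 passed in every fit with 1 of the 8 arrays left out. RPI1 and PDR5 missed the threshold whichever 1 of these 4 arrays was left out (highest limma adjusted p = 0.11 and 0.112). PDR1, SNQ2 and YRR1 missed the threshold without wild type replicate 2 or double deletion replicate 1, with the highest limma adjusted p from 0.0604 for PDR1 to 0.0671 for YRR1. FLR1 missed the threshold whichever 1 of these 4 arrays other than double deletion replicate 2 was left out (highest limma adjusted p = 0.129).

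Permeases for organic nutrients gave smaller counts. MMP1, the S-methylmethionine permease, rose 2.98-fold, from 827 and 649 to 2378 and 2010.1, and PTR2, the di- and tripeptide transporter, rose 1.77-fold, from 1686 and 1893 to 2981 and 3371. OPT2, of the oligopeptide transporter family, fell from 1266 and 1352 to 599 and 473 (log2 difference -1.30, SE 0.16, limma adjusted p = 0.00418). These 3 held among the 24 amino acid and peptide permeases. Of the 24, 7 (0 to 4) rose (29.2%, beside 14.7% at like signal) and 1 fell (4.17%, beside 18.5%). In the uracil and cytosine system the uracil permease gene FUR4 rose from 496 and 501 to 1098 and 1157, while FCY21, a purine-cytosine permease relative, fell from 309.5 and 316 to 87.0 and 100.2. Of 29 genes for other nitrogen sources 5 (0 to 3) rose (17.2%, beside 19.8% at like signal) and 6 (0 to 3) fell (20.7%, beside 11.1%). GZF3, which encodes a repressor of such genes, rose 2.33-fold and held. GDH2, for the glutamate dehydrogenase that uses NAD, rose 1.56-fold and held too. None of the 11 hexose transporter genes in the sugar list passed. HXT2, for a transporter used at low glucose, varied widely within groups, at 2453 and 3677 in the wild type and 601 and 2445 in the double deletion. The methionine permease gene MUP3, the permease gene AGP3 and the proline permease gene PUT4 were further rises among the amino acid permeases (log2 differences 1.08, 0.97 and 0.87). Of the nitrogen genes DUR3, for urea uptake, rose (log2 difference 1.03), and DAL4 and CAR1, for allantoin uptake and arginase, fell (log2 differences -0.86 and -0.66). The maltose permease gene MAL11 and the glucose sensor gene RGT2 rose and the glucose signalling gene STD1 fell (log2 differences 1.71, 0.54 and -0.58), the only calls among 23 sugar genes. Rises were 8.7% of that list and falls 4.35%, beside 19% and 11% at like signal. Ion pumps and channels had 3 rises (17.6%, beside 19% at like signal) and 1 fall (5.88%, beside 18%) among 17. The potassium transporter gene TRK2, the magnesium transporter gene ALR2 and the potassium channel gene TOK1 rose (log2 differences 0.76, 0.64 and 0.45), and SAT4, a kinase gene that acts on potassium uptake, fell (log2 difference -0.44). OPT2 and FCY21 passed in each fit that left out 1 of the 8 arrays. GZF3 and MMP1 missed the threshold without wild type replicate 2 or double deletion replicate 1 (highest limma adjusted p = 0.0778 and 0.0812). FUR4, PTR2 and GDH2 missed the threshold whichever 1 of these 4 arrays other than double deletion replicate 2 was left out, with the highest limma adjusted p from 0.0611 for FUR4 to 0.0671 for GDH2.

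At the inner mitochondrial membrane, 3 carrier genes fell and held. GGC1, the GTP and GDP carrier, read 4156 and 4043 against 1471 and 1862 (2.48-fold lower, log2 difference -1.31, SE 0.13, limma adjusted p = 0.00247). ODC2, which carries 2-oxodicarboxylates, read 3793 and 3858 against 1709 and 1976, and YMC1, a carrier of the same family, 2141 and 2278 against 1025 and 1102. Both fell close to 2-fold (2.08 and 2.08), with no overlap. CRC1 and PET8, the carriers of carnitine and of S-adenosylmethionine, rose 2.11-fold and 1.84-fold and held, CRC1 from 47.6 and 53.5 to 118 and 96.3. Of the 29 carrier genes 5 (0 to 4) rose (17.2%, beside 18.6% at like signal) and 6 (3 to 5) fell (20.7%, beside 14.5%). GGC1, ODC2 and YMC1 passed in all 8 fits with 1 array left out. CRC1 missed the threshold whichever 1 of these 4 arrays other than double deletion replicate 2 was left out (highest limma adjusted p = 0.0882). PET8 missed the threshold without double deletion replicate 1 (limma adjusted p = 0.0529).

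**Figure D3:**
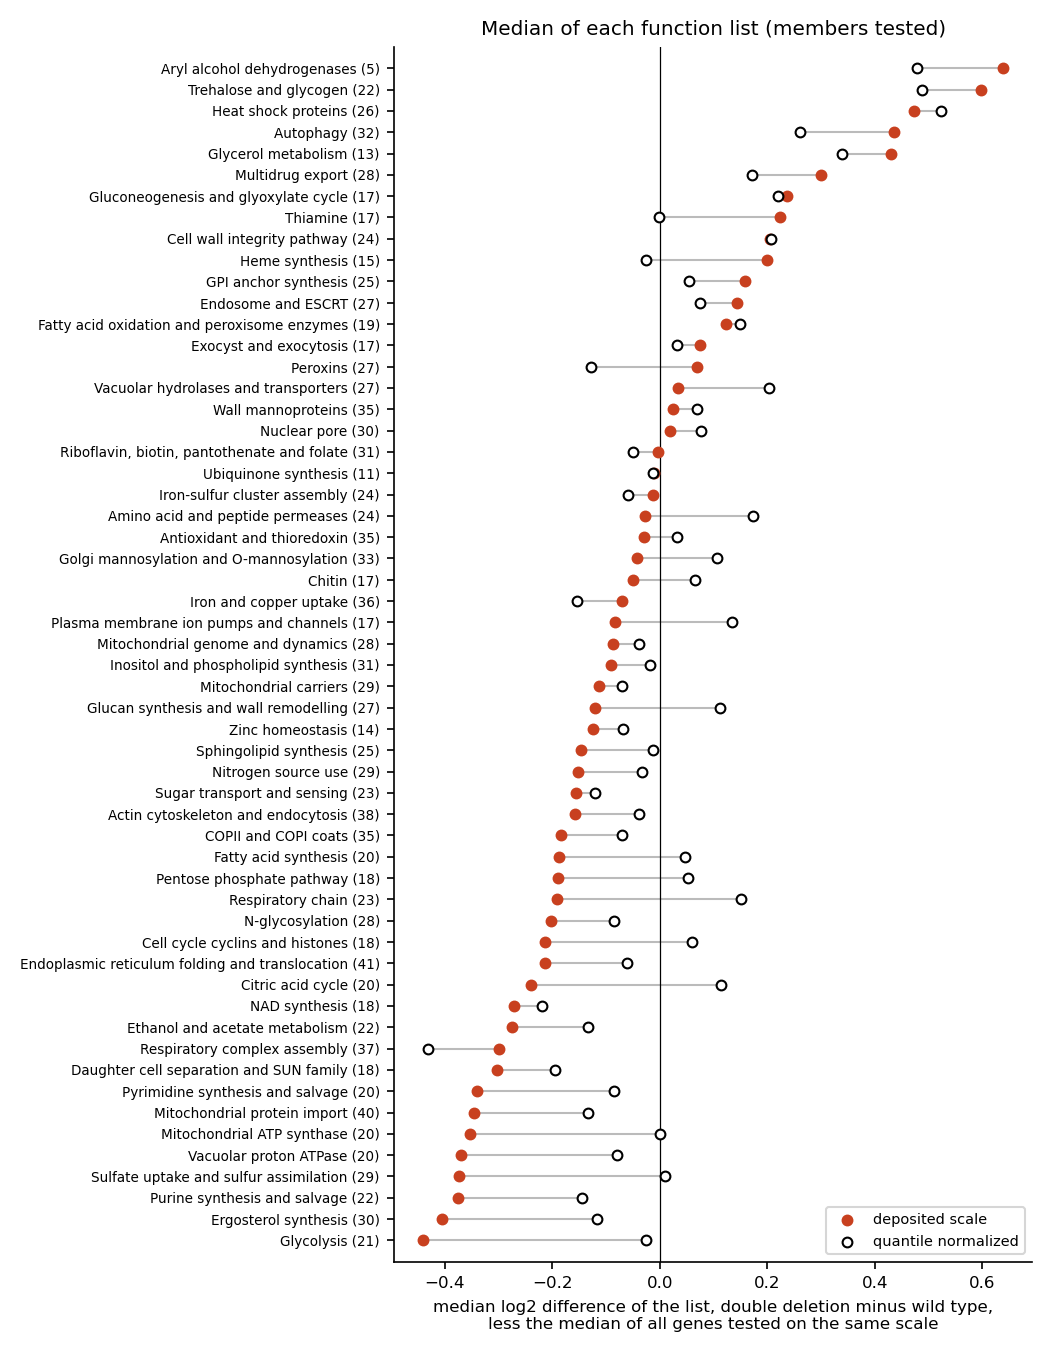
Median log2 difference of each of the 56 function lists (number of members tested in brackets), double deletion minus wild type, less the median of all genes on the same scale. Filled points are the deposited scale and open points quantile normalization; the lists of abundant proteins at the foot (glycolysis, ergosterol, the vacuolar proton pump) move towards 0 after quantile normalization, and those of trehalose and glycogen, heat shock and autophagy stay above 0 on both.

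Of 21 glycolysis genes 12 (0 to 12) fell (57.1%, beside 36.1% at like signal) and 1 rose (4.76%, beside 10%). However, 11 of the falls lay between -0.37 and -0.28. The list's median moved from -0.30 on the deposited scale to -0.03 after quantile normalization. All genes of the brightest bin had a median of -0.28 on the deposited scale. TDH1, the glyceraldehyde 3-phosphate dehydrogenase isoform that is used least in fast growth, was the exception that held. It read 3517 and 3429 against 1944 and 1564 (1.99-fold lower, log2 difference -0.99, SE 0.16, limma adjusted p = 0.00727), beside the lower 5′ to 3′ ratio of its control probe sets in the double deletion. PDC5, a minor pyruvate decarboxylase gene, rose from 664 and 538 to 1555 and 1011. CIT3, a mitochondrial citrate and methylcitrate synthase gene, rose 2.98-fold, from 37.6 and 46.7 to 129.5 and 120.4, and was the only one of 20 citric acid cycle genes to hold. NQM1, a transaldolase paralogue, rose from 114 and 140.2 to 437 and 323 and was likewise the only one of 18 pentose phosphate genes to hold. PFK26, which makes an activator of phosphofructokinase, was the rise of the glycolysis list (log2 difference 0.78), and FBA1, CDC19 and PFK1 were the next falls (log2 differences -0.37, -0.35 and -0.34; sign turned with the hybridisation controls). In the citric acid cycle KGD1 and PDX1 rose (log2 differences 0.47 and 0.39) and LPD1 and IDH2 fell (log2 differences -0.43 and -0.37; that of IDH2 turned with the hybridisation controls), all 4 for subunits of dehydrogenases. The pentose phosphate genes RKI1, TAL1, GND1 and TKL1 fell (log2 differences -0.67, -0.36, -0.32 and -0.28; all but RKI1 turned with the hybridisation controls). Of 22 ethanol and acetate genes 3 rose (13.6%, beside 13.4% at like signal) and 6 (2 to 5) fell (27.3%, beside 24.4%). The rises beside PDC5 were the aldehyde dehydrogenase gene ALD3 and the regulator gene PDC2 (log2 differences 1.74 and 0.54), and PDC6 and ADH6, a decarboxylase and an alcohol dehydrogenase gene, had the largest falls (log2 differences -0.92 and -0.55). CIT3 and NQM1 passed in every fit with 1 of the 8 arrays left out. TDH1 missed the threshold without wild type replicate 2 (limma adjusted p = 0.0524). PDC5 missed the threshold without wild type replicate 2 or double deletion replicate 1 (highest limma adjusted p = 0.084).

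The genes for making sugar from smaller carbon compounds included both directions. PYC2, a pyruvate carboxylase gene, fell from 3722 and 3933 to 2181 and 2369 (1.68-fold, limma adjusted p = 0.00418) and held. The gluconeogenic gene PCK1 rose from 97.4 and 145 to 275 and 263, the glyoxylate cycle gene ICL1 from 166 and 173 to 333 and 324 and the lactate permease gene JEN1 from 61.6 and 73.6 to 148 and 121. All 3 are strongly repressed by glucose in wild type yeast, and none of the 3 read above 333 on the 4 arrays; none held on all 4 scalings. In the list 5 (1 to 4) of 17 genes rose (29.4%, beside 18.2% at like signal) and 1 fell. Of 13 glycerol genes 5 (0 to 1) rose (38.5%, beside 17.8% at like signal) and 1 fell. GCY1, a glycerol dehydrogenase gene, rose from 479 and 499 to 1418 and 1042, and GPD1, which makes glycerol 3-phosphate, from 2365 and 1689.8 to 3514 and 3714; both held. The genes for glycerol use, GUT1 and GUT2, rose 1.73-fold and 2.30-fold without holding. IDP2, a cytosolic isocitrate dehydrogenase gene, and GUP1, named for glycerol uptake, rose as well (log2 differences 1.07 and 0.59). PYC2 and ICL1 passed in each fit that left out 1 of the 8 arrays. PCK1 missed the threshold without double deletion replicate 1 (limma adjusted p = 0.0668). GUT2 and JEN1 missed the threshold whichever 1 of these 4 arrays was left out (highest limma adjusted p = 0.108 and 0.139). GCY1 missed the threshold whichever 1 of these 4 arrays other than double deletion replicate 2 was left out (highest limma adjusted p = 0.0744). GPD1 missed the threshold whichever 1 of these 4 arrays other than wild type replicate 1 was left out (highest limma adjusted p = 0.0778). GUT1 missed the threshold whichever 1 array of the wild type, the double deletion or the RPL12A plasmid strain was left out (highest limma adjusted p = 0.246).

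Of 22 trehalose and glycogen genes only 3 rose (13.6%, beside 22% at like signal) and 1 fell, and none was higher after quantile normalization. The list's median was nonetheless 0.74 on the deposited scale and 0.49 after quantile normalization, and 21 genes had a difference above 0 (95.5%, beside 60.3% of all genes). The spread between replicates was wide, and widest in the plasmid strains, which share in the estimate of spread. Summed over the list, the signal was 13197 and 12490 in the wild type and 20422 and 16268 in the double deletion. It was 14027 and 26390 with the RPL12A plasmid and 12909 and 32010 with the RPL12B plasmid. TSL1, a trehalose synthase subunit gene, read 349 and 286 in the wild type and 1484 and 642 in the double deletion and did not pass (log2 difference 1.63, SE 0.81, limma adjusted p = 0.159). The median over the list's genes of double deletion replicate 1 less replicate 2 was 0.29 on the log2 scale. ATH1, the acid trehalase gene, rose from 149 and 141 to 441 and 253, and NTH2, a neutral trehalase gene, from 352 and 261 to 605 and 473. PGM1, a phosphoglucomutase gene, was the fall, from 1566 and 1283 to 991 and 877. None of the 4 calls held on every scaling. PIG1, a phosphatase subunit gene of glycogen synthesis, was the other rise (log2 difference 0.73). ATH1 and NTH2 missed the threshold whichever 1 of these 4 arrays other than double deletion replicate 2 was left out (highest limma adjusted p = 0.0981 and 0.17). PGM1 missed the threshold whichever 1 of these 4 arrays was left out (highest limma adjusted p = 0.0991).

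INO1, which makes inositol 3-phosphate from glucose 6-phosphate and is the most tightly regulated step of phospholipid synthesis, had the largest fall among the lipid genes. It read 883 and 1061 in the wild type and 238 and 156 in the double deletion, 5.03-fold lower (log2 difference -2.33, SE 0.25, limma adjusted p = 0.00309). The inositol permease gene ITR1 fell from 4708 and 4888 to 2109 and 2889, the phosphatidylserine synthase gene CHO1 from 2669.9 and 2864 to 1369 and 1739, and the phospholipid methyltransferase gene OPI3 from 4785 and 4920.1 to 2942 and 2941. INO1 alone held on all 4 scalings. The activator genes INO2 (249 and 277 against 219 and 300.5) and INO4 (525 and 557 against 509 and 587) did not pass, and neither did the repressor gene OPI1 (923 and 997 against 577 and 815). The list of 31 genes had 3 rises (9.68%, beside 19.7% at like signal) and 6 (1 to 5) falls (19.4%, beside 12.5%). In it 19 differences lay above 0 (61.3%, beside 60.3% of all genes), with a median of 0.05. The other falls were those of CDS1 and CHO2, a lipid activating enzyme and a methyltransferase (log2 differences -0.56 and -0.34; that of CHO2 turned with the hybridisation controls). The rises were those of DGA1, of storage lipid, and of CRD1 and PGS1, of cardiolipin synthesis (log2 differences 0.57, 0.60 and 0.64). INO1 passed in every fit with 1 of the 8 arrays left out. ITR1 missed the threshold whichever 1 of these 4 arrays other than double deletion replicate 2 was left out (highest limma adjusted p = 0.123). CHO1 missed the threshold whichever 1 of these 4 arrays was left out (highest limma adjusted p = 0.219). OPI3 missed the threshold without wild type replicate 2 or double deletion replicate 1 (highest limma adjusted p = 0.0552).

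Of 30 ergosterol genes 13 (3 to 8) fell (43.3%, beside 30.2% at like signal) and 1 rose, with a median of -0.26 on the deposited scale and -0.12 after quantile normalization, where 6 were lower. ERG10, the acetoacetyl-CoA thiolase of the first step, fell from 3923 and 4099.8 to 2379 and 2400.3 (1.68-fold, limma adjusted p = 0.00195) and was the member that held. ERG6 and IDI1, a sterol methyltransferase and an isoprenoid isomerase gene, fell 1.56-fold and 1.55-fold, while ARE2, which esterifies sterols for storage, rose 1.97-fold. In the sphingolipid list YPC1, an alkaline ceramidase gene, rose from 686 and 666 to 1864 and 1676 and held. The peroxisomal fatty acid list contained a pair of large rises that held. DCI1, a peroxisomal isomerase relative, read 71.6 and 68.6 against 272 and 241 (3.65-fold higher, limma adjusted p = 0.00188). CAT2, the carnitine acetyltransferase, read 119 and 141 against 554 and 379.8 (3.54-fold higher, limma adjusted p = 0.00421), and its function adjoins that of the carnitine carrier CRC1. PXA2, a subunit of the peroxisomal fatty acid importer, rose 2.08-fold without holding. Mitochondrial fatty acid synthesis gave PPT2, which attaches phosphopantetheine to the mitochondrial acyl carrier protein and rose from 145 and 152 to 679 and 595 (4.28-fold, limma adjusted p = 0.0014), and OAR1 and CEM1, enzymes of the same route, which rose 1.89-fold and 1.55-fold without holding. ERG3, a sterol desaturase gene, fell (log2 difference -0.54). Of 25 sphingolipid genes 3 rose and 3 fell (12% each, beside 14.1% and 14.3% at like signal). TSC3 and TSC10, of the first steps, were among the falls (log2 differences -0.66 and -0.64). DPL1 and CSH1, a lyase and a mannosyltransferase gene, were among the rises (log2 differences 0.47 and 0.46). The regulator gene PIP2 rose and SPS19, a peroxisomal reductase gene, fell (log2 differences 0.66 and -0.89). Of 20 fatty acid synthesis genes 4 (0 to 2) rose (20%, beside 12.4% at like signal) and 2 fell (10%, beside 31.4%). MGA2, a regulator of desaturation, and the elongase gene ELO1 were among the rises (log2 differences 1.08 and 0.59) and the elongase gene ELO2 among the falls (log2 difference -0.43). ERG10, IDI1, DCI1, CAT2 and PPT2 passed in each fit that left out 1 of the 8 arrays. ERG6 missed the threshold without wild type replicate 2 (limma adjusted p = 0.0515). ARE2 missed the threshold whichever 1 of these 4 arrays was left out (highest limma adjusted p = 0.107). PXA2, YPC1 and OAR1 missed the threshold whichever 1 of these 4 arrays other than double deletion replicate 2 was left out, with the highest limma adjusted p from 0.0671 for PXA2 to 0.113 for OAR1. CEM1 missed the threshold whichever 1 array of the wild type, the double deletion or the RPL12A plasmid strain was left out (highest limma adjusted p = 0.175).

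Genes of NAD metabolism were called in both directions. BNA1, a dioxygenase of the kynurenine route from tryptophan to NAD, fell from 3012 and 3467 to 1344 and 1358 (log2 difference -1.26, SE 0.16, limma adjusted p = 0.00447), and BNA5, the kynureninase of the same route, from 252 and 201 to 120.4 and 105. YEF1 and POS5, whose products phosphorylate NAD or NADH, went from 109 and 88.2 to 509.8 and 273 and from 931 and 714 to 1774 and 1481, and the nicotinate mononucleotide adenylyltransferase gene NMA1 rose 1.45-fold. Of the 5 genes BNA5 alone did not hold on every scaling. In the list of 18 genes 4 (0 to 3) rose (22.2%, beside 20.9% at like signal) and 5 (1 to 1) fell (27.8%, beside 10.2%). The remaining rise was that of NMA2, the relative of NMA1 (log2 difference 0.50), and the remaining falls were those of URH1 and NRK1, of nicotinamide riboside use, and BNA6, of the kynurenine route (log2 differences -0.61, -0.58 and -0.37; that of BNA6 turned with the hybridisation controls). In pyrimidine salvage FUR1, which turns uracil into UMP, was lower by 2.65-fold with little spread, at 4469 and 4485 against 1669.8 and 1710.2 (limma adjusted p = 0.000679). URA3, of the synthesis route, read 1993 and 2499 against 5477 and 5878; W303 is known as a ura3 mutant, and whether a deletion marker contributes to this signal was not tested. The adenine gene ADE2, also mutant in W303, read 654 and 732 against 1271 and 1403 and rose 1.93-fold. CDD1, the cytidine deaminase gene, rose (log2 difference 0.81). Of 22 purine genes 2 rose and 7 (0 to 5) fell (31.8%, beside 34.4% at like signal). The IMP dehydrogenase genes IMD3 and IMD4, the GMP synthase gene GUA1 and the adenosine kinase gene ADO1 were among the falls (log2 differences -0.56, -0.37, -0.47 and -0.49). The difference of IMD4 turned with the hybridisation controls. BNA1, FUR1 and URA3 passed in all 8 fits with 1 array left out. BNA5 and ADE2 missed the threshold whichever 1 of these 4 arrays was left out (highest limma adjusted p = 0.0852 and 0.0863). YEF1 and POS5 missed the threshold without wild type replicate 2 or double deletion replicate 1 (highest limma adjusted p = 0.0635 and 0.0764). NMA1 missed the threshold whichever 1 of these 4 arrays other than double deletion replicate 2 was left out (highest limma adjusted p = 0.0878).

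In the thiamine list 7 (1 to 6) of 17 genes rose (41.2%, beside 20.4% of all genes and 25.2% at like signal) and none fell, and the median was 0.36 on the deposited scale and -0.00 after quantile normalization. PET18, which resembles bacterial thiaminase, had the largest rise of the list. It read 138 and 124 in the wild type and 908 and 748 in the double deletion (6.29-fold higher, log2 difference 2.65, SE 0.23, limma adjusted p = 0.00163). THI22, a relative of the pyrimidine kinases of thiamine synthesis, rose from 229 and 224 to 632 and 581, and THI6, which joins the rings of thiamine, from 486 and 447 to 862 and 803; these 3 held. The synthesis gene THI4 rose 2.05-fold without holding. The thiamine pyrophosphokinase gene THI80 (950.3 and 1003 against 899 and 1160.5) and the thiamine permease gene THI7 (601 and 512 against 730.1 and 699) did not pass. Near PET18 on chromosome III, HTL1, a subunit gene of the RSC chromatin remodeller, read 154 and 129 against 430.3 and 432 and SRD1, a ribosomal RNA processing gene, 259 and 361 against 924 and 873; both rose and held, and both were chosen after their values were seen. MAK31 and MAK32, on either side of PET18, did not pass (log2 differences 0.29 and 0.06). SNO3 and THI13, whose probe sets are marked as shared between similar genes, rose too (log2 differences 1.01 and 0.88). Heme synthesis had 2 rises (13.3%, beside 24.6% at like signal) and 3 falls (20%, beside 6.67%) among 15 genes. HEM12 and the regulator gene HAP5 rose (log2 differences 0.70 and 0.60), and HEM13, HEM1 and HEM2 fell (log2 differences -0.61, -0.46 and -0.42). In the list of riboflavin, biotin, pantothenate and folate 6 (0 to 1) of 31 genes rose (19.4%, beside 21.2% at like signal). In the same list 5 (0 to 1) fell (16.1%, beside 10.2%). Among the rises were the biotin gene BIO3, the riboflavin genes RIB7 and FMN1 and the pantothenate transporter gene FEN2 (log2 differences 0.91, 0.70, 0.59 and 0.67). RIB3 was among the falls (log2 difference -0.61). Of 11 ubiquinone genes COQ4 and COQ8 rose (18.2%, beside 22.2% at like signal) and CAT5 fell (9.09%, beside 8.57%), with log2 differences of 0.83, 0.50 and -0.62. PET18, HTL1 and SRD1 passed in every fit with 1 of the 8 arrays left out. THI22 missed the threshold without wild type replicate 2 or double deletion replicate 1 (highest limma adjusted p = 0.0603). THI6 missed the threshold whichever 1 of these 4 arrays other than double deletion replicate 2 was left out (highest limma adjusted p = 0.0764). THI4 missed the threshold without wild type replicate 1 or double deletion replicate 1 (highest limma adjusted p = 0.0714).

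The gene with the largest rise of all was NCA3, of the SUN family of wall glucan proteins. It read 74.3 and 73.7 in the wild type and 1061 and 936 in the double deletion, 13.5-fold higher with no overlap and little spread (log2 difference 3.75, SE 0.24, limma adjusted p = 0.000679). Its relatives went the other way or did not pass. SUN4 fell from 2204 and 2224 to 1319 and 1344 (1.66-fold), and SIM1 (3385 and 3350.4 against 3059 and 3008) and UTH1 (5521 and 5611 against 5294 and 5679) did not pass. Among the genes of daughter cell separation AMN1, whose product antagonises mitotic exit in daughter cells, fell 1.62-fold, and EGT2 and CTS1, which act on the septum, 1.44-fold and 1.32-fold. The list had 5 (0 to 3) falls among 18 genes (27.8%, beside 16.3% at like signal). NCA3 was its only rise (5.56%, beside 17.1%), and none of the falls held on every scaling. PRY3, a wall associated protein of daughter cells, was the other fall (log2 difference -0.46). NCA3 passed in each fit that left out 1 of the 8 arrays. SUN4 missed the threshold without wild type replicate 2 or double deletion replicate 1 (highest limma adjusted p = 0.0547). AMN1 missed the threshold without wild type replicate 2 (limma adjusted p = 0.0525). EGT2 missed the threshold whichever 1 of these 4 arrays other than double deletion replicate 2 was left out (highest limma adjusted p = 0.112). CTS1 missed the threshold whichever 1 of these 4 arrays was left out (highest limma adjusted p = 0.148).

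Wall mannoproteins showed 10 (2 to 6) rises (28.6%, beside 13.6% at like signal) and 7 (0 to 5) falls (20%, beside 24.1%) among 35 genes. Of these, 5 rises held, that of FIT1 (above) among them. YGP1, a secreted glycoprotein of starvation, rose from 1325 and 1131 to 4213 and 3997 (3.35-fold, log2 difference 1.75, SE 0.09, limma adjusted p = 0.000376). SPI1, a wall protein anchored through GPI that is tied to weak acid resistance, rose from 197 and 214 to 1115 and 971. DAN4, of the mannoprotein group known from growth without oxygen, read 96.5 and 113 against 342 and 229, and PIR3, a wall protein with internal repeats, 1471 and 2562 against 3635 and 3806, with the wild type arrays of PIR3 far from each other. CCW12, the main mannoprotein of growing cells, fell from 6638 and 7028 to 4884 and 5148 on the deposited scale, and its difference was -0.15 after quantile normalization. TIR3, at 83.6 and 86.2 against 49.4 and 41.5, fell on low signals. PLB3, a phospholipase B gene, rose (log2 difference 1.20). YGP1 and DAN4 passed in all 8 fits with 1 array left out. SPI1 missed the threshold whichever 1 of these 4 arrays other than double deletion replicate 2 was left out (highest limma adjusted p = 0.0773). PIR3 missed the threshold without double deletion replicate 1 or 2 (highest limma adjusted p = 0.0979). CCW12 missed the threshold without wild type replicate 2 or double deletion replicate 1 (highest limma adjusted p = 0.0653). TIR3 missed the threshold whichever 1 of these 4 arrays was left out (highest limma adjusted p = 0.114).

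Wall synthesis and remodelling genes had 6 (0 to 3) rises (22.2%, beside 12.5% at like signal) and 3 falls (11.1%, beside 26.2%) among 27. The glucan synthase genes FKS1 (4305 and 4681 against 3904 and 4345) and GSC2 (1459 and 1595 against 1512 and 1416) and the chitin synthase gene CHS3 (1619 and 1840.3 against 1642 and 1569) did not pass. SKN1, of 1,6-beta-glucan assembly, rose 1.89-fold, from 546 and 580.2 to 1031 and 1101, and SCW10, a glucanase relative, 1.40-fold; both held. In the cell wall integrity pathway 8 (0 to 3) of 24 genes rose (33.3%, beside 20.4% of all genes and 24.3% at like signal) and none fell, and 1 was higher after quantile normalization. SWI4, the DNA binding subunit of a regulator of G1 and wall genes, rose from 149 and 169.6 to 399 and 328 and held. ROM1, an exchange factor of Rho1, rose from 106 and 106 to 442 and 266, and the kinase genes PKC1 and MKK2 1.47-fold and 1.56-fold, without holding. The pathway's last kinase gene, SLT2, did not pass (1841 and 2758 against 2477 and 2781). ACF2, a glucanase gene, and KRE5, of 1,6-beta-glucan synthesis, rose and UTR2, a wall crosslinking enzyme gene, fell (log2 differences 0.67, 0.43 and -0.46). The 8 rises of the integrity list include MLP1, whose probe set is named for the locus of a nuclear basket protein (log2 difference 0.49). The count and share thus hold a gene whose place in the pathway is not shown here. Of 17 chitin genes CHS6 and CTS2 rose (11.8%, beside 17% at like signal) and PCM1 fell (5.88%, beside 15.3%), with log2 differences of 0.65, 0.57 and -0.50. SKN1 and SWI4 missed the threshold without double deletion replicate 1 (limma adjusted p = 0.0503 and 0.0611). SCW10, ROM1 and MKK2 missed the threshold whichever 1 of these 4 arrays other than double deletion replicate 2 was left out, with the highest limma adjusted p from 0.0669 for SCW10 to 0.129 for MKK2. PKC1 missed the threshold whichever 1 of these 4 arrays was left out (highest limma adjusted p = 0.106).

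Among the secretory lists the largest difference was that of HVG1. This gene, a paralogue of the Golgi GDP-mannose transporter gene VRG4, rose from 64.8 and 59.3 to 315 and 237 (4.40-fold, log2 difference 2.14, SE 0.20, limma adjusted p = 0.00191), and the uncharacterised gene beside it, YER039C-A, from 26.8 and 35.5 to 203 and 135. VRG4 did not pass (2640.3 and 2566 against 2808 and 2922). The Golgi mannosyltransferase genes YUR1 and OCH1, of which OCH1 starts the outer mannose chain, rose 2.18-fold and 1.95-fold, YUR1 from 254 and 247 to 542 and 549 and OCH1 from 464 and 487 to 929 and 929. In the reticulum ALG14 and ALG11, which extend the lipid-linked sugar of N-glycosylation, rose 1.90-fold and 1.56-fold, and GPI1, of the first step of GPI anchor synthesis, 1.76-fold. HVG1, YUR1, OCH1, ALG14, ALG11 and GPI1 held. Of the Golgi and O-mannosylation genes 8 (3 to 5) of 33 rose (24.2%, beside 18.1% at like signal) and none fell, and 4 were higher after quantile normalization. Of the GPI anchor genes 8 (0 to 2) of 25 rose (32%, beside 23.7% at like signal) and none fell; after quantile normalization 1 was higher and the median was 0.05. N-glycosylation had 4 (0 to 3) rises (14.3%, beside 16.3%) and 3 falls among 28. The other large rises were MNT4 and VAN1 of the Golgi list (log2 differences 0.90 and 0.60), GPI19, GUP1, GPI2 and GPI10 of the anchor list (log2 differences 1.12, 0.59, 0.55 and 0.55) and ALG1 and ALG6 of N-glycosylation (log2 differences 0.45 and 0.40), where PSA1, the GDP-mannose synthase gene, fell (log2 difference -0.41). HVG1, YER039C-A, YUR1 and OCH1 passed in each fit that left out 1 of the 8 arrays. ALG14 missed the threshold whichever 1 of these 4 arrays other than double deletion replicate 2 was left out (highest limma adjusted p = 0.095). ALG11 missed the threshold without wild type replicate 2 or double deletion replicate 1 (highest limma adjusted p = 0.0702). GPI1 missed the threshold without double deletion replicate 1 (limma adjusted p = 0.0524).

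Folding and vesicle coats gave other counts. Of 41 folding and translocation genes of the endoplasmic reticulum 2 rose and 4 (0 to 2) fell, both under the 20.4% and 12.2% of all genes. The chaperone gene KAR2 (4788 and 4286 against 4545 and 4078) and HAC1 (3676 and 4055 against 3516 and 3334), which encodes the activator of the unfolded protein response, did not pass. Vesicle coat genes had 9 (0 to 4) falls (25.7%, beside 21.4% at like signal) and 1 rise among 35. Their quantile median was -0.07, and no call held. At the plasma membrane SNC2, a vesicle SNARE gene, fell from 2261 and 2463 to 1318 and 1476, while SEC10, an exocyst subunit gene, rose from 477 and 456 to 757 and 736; both held. The exocyst list had 4 (0 to 2) rises among 17 genes (23.5%, beside 21.4% at like signal), with EXO84, SEC5 and SEC15 beside SEC10 (log2 differences 0.67, 0.55 and 0.36). In the reticulum the signal peptidase genes SPC1 and SPC3 were the rises (log2 differences 0.70 and 0.42) and SBH2, ERV2 and EUG1 the largest falls (log2 differences -0.62, -0.62 and -0.53). SAR1, COP1, RET2, ARF2 and ARF1 were the largest falls among the coat genes (log2 differences -0.45, -0.45, -0.40, -0.40 and -0.40; those of ARF2 and ARF1 turned with the hybridisation controls). Actin and endocytosis had 3 rises (7.89%, beside 15.3% at like signal) and 4 (0 to 2) falls (10.5%, beside 17.5%) among 38 genes. The clathrin gene CHC1, its adaptor gene YAP1801 and the myosin gene MYO3 rose (log2 differences 0.44, 0.77 and 0.70) and the Arp2/3 subunit genes ARC15 and ARC18 fell (log2 differences -0.66 and -0.40). SNC2 and SEC10 missed the threshold without wild type replicate 2 or double deletion replicate 1 (highest limma adjusted p = 0.0526 and 0.0692).

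Autophagy genes had the largest share of rises among the function lists with over 20 genes tested. Of 32 genes 14 (1 to 12) rose (43.8%, beside 20.4% of all genes and 28.2% at like signal), none fell, 31 had a difference above 0 and 5 held, beside 5.31% of all genes. The list is dim, with a median signal of 274, and in the bin of genes with signals from 138 to 277 there were 201 rises among 544 genes and a median difference of 0.51. After quantile normalization 5 members were higher and 1 was lower. The median was 0.58 on the deposited scale and 0.26 after quantile normalization. ATG1, the kinase that starts autophagy, rose from 178 and 186 to 488 and 402 (2.43-fold, limma adjusted p = 0.00758). ATG9, the membrane protein of the forming vesicle, rose from 79.9 and 85.8 to 221 and 171. The conjugation genes ATG5 and ATG16 rose too, ATG5 from 549 and 589 to 983 and 1169 and ATG16, at low signals, from 31.6 and 23.8 to 98.4 and 56.1. ATG26, a sterol glucosyltransferase gene that starvation autophagy in this yeast does not need, rose 1.98-fold. ATG8, whose product coats the vesicle and whose message is a common readout of induction, did not pass (560.4 and 612 against 1054 and 891, limma adjusted p = 0.0654). ATG14, a subunit of the lipid kinase of autophagy, and ATG20, a sorting nexin, rose too (log2 differences 1.19 and 1.16). ATG5 passed in every fit with 1 of the 8 arrays left out. ATG26 and ATG1 missed the threshold without wild type replicate 2 or double deletion replicate 1 (highest limma adjusted p = 0.0529 and 0.0617). ATG9 missed the threshold without double deletion replicate 1 (limma adjusted p = 0.0529). ATG16 missed the threshold whichever 1 of these 4 arrays other than double deletion replicate 2 was left out (highest limma adjusted p = 0.1).

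**Figure D4:**
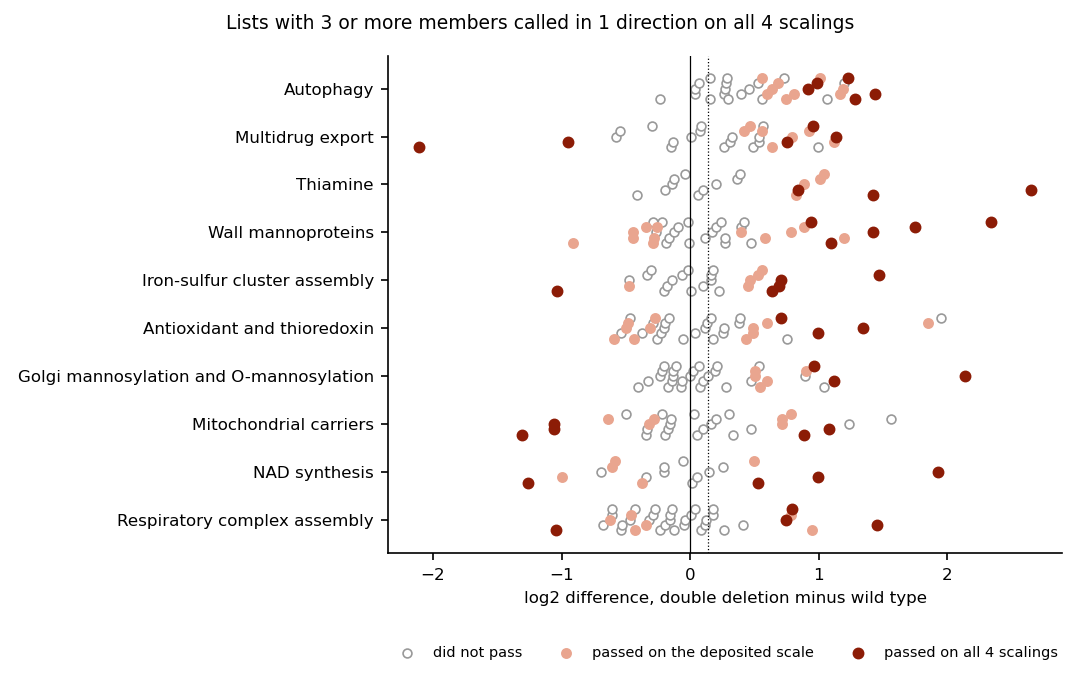
Log2 difference (double deletion minus wild type, horizontal axis) of every tested member of the 10 function lists that had at least 3 members called in 1 direction on all 4 scalings, each point 1 gene. Open points did not pass, pale points passed on the deposited scale and dark points on all 4 scalings; the dotted line marks the median of all genes, 0.14, and 31 of the 32 autophagy genes lie above 0.

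APE1, the vacuolar aminopeptidase that reaches the vacuole by that route, fell from 1314 and 1089 to 671 and 424 (2.24-fold, limma adjusted p = 0.0139) and held. Of 27 vacuolar hydrolase and transporter genes 7 (1 to 5) rose (25.9%, beside 14.8% at like signal) and 5 (0 to 1) fell (18.5%, beside 17.5%). VBA2, a vacuolar transporter of basic amino acids, rose from 259 and 308 to 592 and 683 and held. ATG15, the lipase that opens autophagic bodies in the vacuole, rose from 108 and 59.0 to 287 and 185, and PBI2, an inhibitor of vacuolar proteinase B, fell from 3323 and 3567 to 2284 and 1729.8, neither holding. The proteases PEP4 and PRB1 did not pass (log2 differences 0.03 and 0.20). Of 20 proton pump genes 7 (0 to 4) fell (35%, beside 40.4% at like signal) and none rose. Their median went from -0.23 to -0.08 after quantile normalization, with no call that held. Among 27 endosome genes 7 (0 to 2) rose (25.9%, beside 24% at like signal) and none fell. VPS29, of the retromer, rose from 722 and 652 to 1046 and 1015 and held. Of 27 peroxisome assembly genes 2 rose (7.41%, beside 27% at like signal), and both held. They were PEX2 (from 496 and 485 to 969.8 and 918), a ubiquitin ligase of the import machinery, and PEX8 (1.67-fold), an import factor inside the organelle. The vacuolar mannosidase gene AMS1 rose (log2 difference 0.78). Among the pump genes VMA9, VMA4, VMA5, VMA21 and VMA10 had the largest falls (log2 differences -0.48, -0.36, -0.33, -0.31 and -0.28; all but VMA9 turned with the hybridisation controls). VPS15, VPS5, VPS20 and VPS4 were further rises of the endosome list (log2 differences 0.66, 0.60, 0.50 and 0.47), and PEX11, for peroxisome division, was the fall among the peroxisome genes (log2 difference -0.62). VBA2, PEX2 and PEX8 passed in each fit that left out 1 of the 8 arrays. APE1 missed the threshold without wild type replicate 1 or 2 (highest limma adjusted p = 0.0807). VPS29 and ATG15 missed the threshold whichever 1 of these 4 arrays other than double deletion replicate 2 was left out (highest limma adjusted p = 0.0939 and 0.165). PBI2 missed the threshold whichever 1 of these 4 arrays was left out (highest limma adjusted p = 0.123).

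For iron-sulfur clusters 8 (0 to 4) of 24 genes rose (33.3%, beside 21% at like signal) and 2 fell. ISU2, a scaffold on which clusters are built, rose from 576 and 571 to 1669.6 and 1508 (2.77-fold, limma adjusted p = 0.00661), and the later acting genes NFU1, ISA2 and DRE2 rose 1.61-fold, 1.64-fold and 1.56-fold. YAH1, the ferredoxin that supplies electrons, fell from 1085 and 1247 to 524 and 617 (2.05-fold, limma adjusted p = 0.00895). These 5 genes held, and the more abundant scaffold gene ISU1 did not pass (2248 and 2242 against 2542 and 2489). The copper chaperones of cytochrome oxidase were opposed as well. COX17 fell from 1218 and 1324 to 651 and 583 (2.06-fold) and COX19 rose from 283 and 235 to 736 and 679.7 (2.74-fold), both holding. PET54 and CBS2, translational activators of mitochondrial messages, rose 1.67-fold and 1.73-fold and held. On the deposited scale the whole assembly list of 37 genes had 5 (2 to 4) rises and 5 (0 to 2) falls. Each was 13.5% of the list, beside 26% and 4.97% at like signal. After quantile normalization 3 were higher and 10 lower, beside 7.19% and 7.85% of all genes. The medians on these scales were -0.16 and -0.43. Subunits of the chain gave no rise, beside 6.2% at like signal, and 2 falls (8.7%, beside 44.4%) among 23. COX20 and CBT1 were further rises of the assembly list (log2 differences 0.95 and 0.78), and COX5A and QCR7 were the falls among the chain subunits (log2 differences -0.28 and -0.26; both turned with the hybridisation controls). COX19 passed in all 8 fits with 1 array left out. ISU2, DRE2 and YAH1 missed the threshold without wild type replicate 2 or double deletion replicate 1, with the highest limma adjusted p from 0.0537 for ISU2 to 0.0692 for YAH1. NFU1 and PET54 missed the threshold whichever 1 of these 4 arrays other than double deletion replicate 2 was left out (highest limma adjusted p = 0.0753 and 0.0878). ISA2 missed the threshold without double deletion replicate 1 (limma adjusted p = 0.0524). CBS2 and COX17 missed the threshold without wild type replicate 2 (limma adjusted p = 0.0547 and 0.0594).

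In protein import 12 (0 to 8) of 40 genes fell (30%, beside 12.2% of all genes and 17.4% at like signal) and 5 (0 to 2) rose, and no call in the list held. The largest falls were in small proteins of the outer membrane and the intermembrane space. TOM7 fell from 2651 and 3265 to 1606 and 1734, TIM8 from 1364 and 1773 to 822 and 991, and ERV1, the oxidase of the disulfide relay, from 774 and 817 to 482 and 446. HOT13, a zinc binding protein that acts with that relay and is not in the list, fell further, from 1109 and 1249 to 440.3 and 490.3 (2.53-fold, log2 difference -1.34, SE 0.14, limma adjusted p = 0.00257), and held. ATP synthase genes had 7 (0 to 3) falls (35%, beside 35.1% at like signal) and 2 rises among 20, with a quantile median of -0.00. Its assembly factors differed, ATP11 falling 1.67-fold and ATP10 rising 2.57-fold. At the nucleus, 6 (0 to 3) of 30 pore genes rose and 1 fell, close to the share among all genes for rises; ASM4 and NUP188 rose 1.58-fold and 1.47-fold and held. MDM10 and IMP2, of outer membrane assembly and the inner membrane peptidase, rose (log2 differences 0.89 and 0.77). Among the ATP synthase subunits ATP16 and ATP3 fell and ATP14 rose (log2 differences -0.50, -0.39 and 0.39; that of ATP3 turned with the hybridisation controls). POM152 and NUP192 of the pore rose and SEH1 fell (log2 differences 0.53, 0.47 and -0.53). Mitochondrial genome and dynamics had 5 (0 to 2) rises (17.9%, beside 20.6% at like signal) and 5 (0 to 2) falls (17.9%, beside 14.7%) among 28 genes. GEM1, MMM1 and MDM12, of the contact with the endoplasmic reticulum, rose (log2 differences 0.92, 0.73 and 0.64), and the carrier gene YHM2 and the fission gene FIS1 fell (log2 differences -0.64 and -0.64). HOT13 passed in every fit with 1 of the 8 arrays left out. ATP11, TOM7 and NUP188 missed the threshold without wild type replicate 2 or double deletion replicate 1, with the highest limma adjusted p from 0.0547 for ATP11 to 0.084 for NUP188. ASM4, ATP10 and TIM8 missed the threshold whichever 1 of these 4 arrays other than double deletion replicate 2 was left out, with the highest limma adjusted p from 0.11 for ASM4 to 0.148 for TIM8. ERV1 missed the threshold without wild type replicate 2 (limma adjusted p = 0.0526).

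Heat shock protein genes had 9 (1 to 9) rises (34.6%, beside 13.7% at like signal) and 4 (0 to 2) falls (15.4%, beside 26.4%) among 26. Their median was 0.61 on the deposited scale and 0.52 after quantile normalization. Their level also differed between the double deletion arrays, where the median over genes of replicate 1 less replicate 2 was 0.51 on the log2 scale. HSP42, a small heat shock protein, read 295 and 231 against 1776 and 889, and HSP82, the inducible Hsp90, 722 and 303 against 2423 and 1324. Both rose, with groups that did not overlap but wide spread, and neither held. HSP104, the disaggregase, rose from 1603 and 1207 to 4058 and 2887, and HSF1, the heat shock factor itself, from 377 and 363 to 704 and 663 (1.84-fold, limma adjusted p = 0.00447); both held. Other stress genes were among the largest rises. RTC3, a stress induced protein linked to RNA metabolism, read 265 and 339 against 3596 and 2465 (9.94-fold higher, log2 difference 3.31, SE 0.49, limma adjusted p = 0.00664), and DDR2, induced by many stresses, 324 and 591 against 2272 and 1552. YER053C-A rose from 952 and 311 to 2833 and 1697, with its wild type arrays apart. BTN2, of protein sorting into deposits, and HSP78, the mitochondrial disaggregase, rose as well (log2 differences 1.58 and 1.25), and the falls were those of the abundant Hsp70 genes SSB1, SSA2 and SSB2 and of SSE1 (log2 differences -0.32, -0.31, -0.29 and -0.21; all turned with the hybridisation controls). HSF1 and DDR2 passed in each fit that left out 1 of the 8 arrays. HSP82 and HSP42 missed the threshold whichever 1 of these 4 arrays was left out (highest limma adjusted p = 0.191 and 0.195). HSP104 and YER053C-A missed the threshold without wild type replicate 2 or double deletion replicate 1 (highest limma adjusted p = 0.0747 and 0.135). RTC3 missed the threshold without double deletion replicate 1 (limma adjusted p = 0.0538).

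Redox genes passed in both directions. Of 35 antioxidant and thioredoxin genes 8 (0 to 6) rose (22.9%, beside 14.3% at like signal) and 6 (0 to 3) fell (17.1%, beside 21.4%). Among all genes the shares were 20.4% and 12.2%. SRX1, which repairs oxidised peroxiredoxin, rose from 34.9 and 44.3 to 123 and 81.7, PRX1, the mitochondrial peroxiredoxin, from 1132 and 1148 to 2714 and 1909, and YAP1, the main regulator of the oxidative response, 1.63-fold; these 3 held. The catalase gene CTT1 read 179.7 and 159.8 against 864 and 496, with no overlap, and missed the threshold (log2 difference 1.95, SE 0.64, limma adjusted p = 0.0525). The plasmid strain arrays, which share in that SE, read 412 and 847 with RPL12A and 366 and 1439 with RPL12B. Of 5 aryl alcohol dehydrogenase genes 3 rose, and AAD14 held, with 99.8 and 91.1 against 273 and 261 (2.80-fold higher, limma adjusted p = 0.00255). GPX1, a glutathione peroxidase gene, had the largest rise of that list that passed, from 123 and 167 to 601 and 443 (log2 difference 1.85), and GTT1, a glutathione transferase gene, the largest fall (log2 difference -0.59). AAD10 and AAD3 were the other rises of the dehydrogenase family (log2 differences 1.03 and 0.78), the probe set of AAD3 being marked as shared. AAD14 passed in all 8 fits with 1 array left out. SRX1, YAP1, GPX1 and PRX1 missed the threshold whichever 1 of these 4 arrays other than double deletion replicate 2 was left out, with the highest limma adjusted p from 0.0754 for SRX1 to 0.123 for PRX1.

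The remaining large differences belonged to regulators, to mating and meiosis genes and to genes of unknown function. HO, the mating type switching endonuclease, read 816 and 566 against 91.9 and 72.9 (8.30-fold lower, log2 difference -3.05, SE 0.46, limma adjusted p = 0.00671). HMS2, a heat shock factor relative tied to filamentous growth, read 419.6 and 489 against 60.1 and 66.7 (7.16-fold lower), and NRG1, a repressor of glucose repressed genes, 191 and 352 against 1052 and 1144 (4.23-fold higher). BAR1, the protease that MATa cells secrete against alpha factor, fell from 773 and 747 to 292 and 265. The other MATa genes were not lower to that extent, since STE2 and the a-factor gene MFA1 did not pass (log2 differences 0.05 and -0.38) and MFA2 fell 1.74-fold without holding. Of 16 meiosis genes, all at low signals, 3 rose (18.75%, beside 16.8% at like signal) and 2 fell (12.5%, beside 2.56%). SPO11 fell from 108 and 121 to 37.2 and 45.2 and REC8 rose from 23.2 and 28.0 to 99.6 and 74.3, and both held. IME2 rose from 90.2 and 99.2 to 176 and 172, and ZIP1 from 79.9 and 110 to 164 and 169. SPS4 fell from 128 and 86.3 to 56.1 and 54.6. IME2, ZIP1 and SPS4 did not hold, and each missed the threshold in at least 1 fit with 1 array left out. The counts of named genes below leave them out. The master regulator gene IME1 did not pass (88.2 and 109 against 128 and 123). IRC15, a microtubule associated protein gene, rose from 31.0 and 35.0 to 191 and 120.4, and NKP2, of the kinetochore, from 88.1 and 66.0 to 342 and 274. Without an assigned function were YJL213W (175 and 185 against 1036 and 1097) and YHR022C (59.4 and 84.4 against 314 and 279) among the rises, and YHI9 (2890.04 and 3115 against 941 and 987) and YDL241W (318 and 714 against 139 and 162) among the falls. YHI9 was 3.11-fold lower and bright on all arrays, whereas the wild type arrays of YDL241W differed by more than 2-fold. The histone gene HHT1 was the only call among 18 cyclin and histone genes (log2 difference -0.28; turned with the hybridisation controls). HO, HMS2, NRG1, BAR1, IRC15, NKP2, YJL213W and YHI9 passed in every fit with 1 of the 8 arrays left out. MFA2 missed the threshold whichever 1 of these 4 arrays was left out (highest limma adjusted p = 0.237). SPO11 and YDL241W missed the threshold without wild type replicate 2 or double deletion replicate 1 (highest limma adjusted p = 0.0547 and 0.0904). REC8 missed the threshold without wild type replicate 1 or double deletion replicate 1 (highest limma adjusted p = 0.0655). YHR022C missed the threshold without double deletion replicate 1 (limma adjusted p = 0.0529).

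The levels of the same genes in the plasmid strains are given side by side and were not tested here. SUL1 read 1434 and 1448 with the RPL12A plasmid and 1202 and 1029 with the RPL12B plasmid, between the double deletion and the wild type. QDR2 read 575 and 501 and 596 and 542, above both wild type arrays. INO1 (493 and 704 and 484 and 424) and ZRT1 (556 and 1289.9 and 712 and 1266) lay between the groups. NCA3 (696 and 408 and 680.3 and 631) was under the double deletion yet well above the wild type, and so was PET18 (580.3 and 401 and 609 and 439.5). HMS2 (97.8 and 85.4 and 124 and 78.5), BAR1 (272 and 289.8 and 319 and 243) and FCY21 (76.1 and 118 and 79.3 and 88.4) stayed near the double deletion on all 4 plasmid arrays. SPI1 (853 and 1584 and 776 and 2053) and HSP42 (726 and 1701 and 602 and 2142) differed between the replicates of a plasmid strain by more than they did between the plasmids.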

How the data were processed

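The deposited values are probe set signal intensities, which the authors computed with MAS5 according to the submitters' processing notes (version not given in the sources used here). From these intensities the log2 signal of 5449 S. cerevisiae genes was taken, using the brightest of several probe sets for 47 genes, with names from the platform table and 12 symbols updated from RefSeq. Genes entered the test where at least 2 arrays lay above their 95th percentile of the S. pombe probe sets, and 5439 were. Limma 3.58.1 in R 4.3.3 fitted all 8 arrays with 1 mean per group and an intensity trend, and p-values were adjusted by Benjamini-Hochberg over all genes tested. The script was tested on simulated data. Alternatives covered scaling, filters, variance models, blocks and arrays left out. The members and the gene lists were chosen with earlier results of these data known. After RPL12A and RPL12B, the text names the 15 largest rises and falls outside the set-aside lists and the passing members of each function list with the largest differences, up to 5 a list, as the rule set; further members, passing or not, were chosen after their values were seen. The number of arrays limits the precision. Sequences were not used here, and genome coordinates served only to place genes on chromosomes and to name neighbours.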

Additional observations from a re-analysis of the deposited data

How the results depend on the processing

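The count of 1770 genes, 1109 higher and 661 lower, depended most on scaling and on single arrays. It was 818 (391 higher, 427 lower) after quantile normalization, 1754 (548 higher, 1206 lower) with median centring and 2876 (2816 higher, 60 lower) with centring on the hybridisation controls. It was 810 (611 higher, 199 lower) in the 5 arrays with a high 25S signal and 449 (263 higher, 186 lower) at an adjusted p of 0.01. With 1 of the 8 arrays left out it lay between 238 and 1965, with 125 to 1228 higher and 91 to 737 lower; an arm left with 1 array was assumed to vary like the other groups. The pseudocount, the floor, either filter, the variance models, the mean over probe sets and the fit of the 4 arrays alone kept the count within 1.5 times. The cause of these shifts was not tested. With replicate number as a block the count was 2363 (1500 higher, 863 lower). Deviations of same-numbered arrays correlated at 0.33 between wild type and double deletion and between 0.05 and 0.79 for the other pairs of groups. The lowest value was that of the double deletion with the RPL12B plasmid strain. The main fit did not pair the arrays by number, and whether the numbers mark a batch was not tested. The 5′ to 3′ ratio of the SRB4 control probe sets lay between 0.295 and 0.317 on the 4 arrays numbered 1 and between 0.147 and 0.199 on the 4 numbered 2. With the block 6 named genes that had not passed did so, namely SUL2, HXT2, OPI1, MAK31, ATG8 and CTT1. Of 307 named genes that passed, 283 kept their direction in every setting. With the hybridisation controls 24 falls became differences above 0, at 0.0341 for FBA1, 0.0514 for CDC19, 0.0612 for PFK1, 0.0305 for IDH2, 0.0386 for TAL1, 0.0857 for GND1, 0.119 for TKL1, 0.0634 for CHO2, 0.0279 for BNA6, 0.0356 for IMD4, 0.002 for ARF2, 0.0027 for ARF1, 0.0461 for VMA4, 0.0684 for VMA5, 0.0894 for VMA21, 0.127 for VMA10, 0.12 for COX5A, 0.143 for QCR7, 0.0084 for ATP3, 0.0822 for SSB1, 0.0972 for SSA2, 0.112 for SSB2, 0.189 for SSE1 and 0.128 for HHT1. After quantile normalization 3 did, at 0.0102 for TKL1, 0.0047 for VMA10 and 0.0796 for SSE1. Of the 307 genes 307 passed with the block, 237 with median centring, 165 after quantile normalization, 220 with the hybridisation controls, and 52 in every fit with 1 array left out. Signals near background limit low genes, among them both RPL12 genes in the double deletion, whose fold is not given.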
